A study of Rattus norvegicus with 26 samples.

Results

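The calcium-binding protein genes Pvalb, Calb1 and Calb2 and the vesicular glutamate transporter genes Slc17a6, Slc17a7 and Slc17a8 were followed through rat spinal cord injury and transplantation of human mesenchymal stem cells. The set was chosen with earlier results of these data known, and its genes, 6 of the 32883 in the table, were matched by symbol, each of which named 1 row (Ensembl ENSRNOG00000006471, ENSRNOG00000007456, ENSRNOG00000016977, ENSRNOG00000016147, ENSRNOG00000020650 and ENSRNOG00000007581 in the order above). All 6 passed the filter on low counts and were tested with 17990 genes in all. RNA was sequenced from cord segments of 5 mm around the lesion site of adult female wild-type Sprague-Dawley rats whose labelled age was postnatal day 70. The lesion was a compression at T10, made with an aneurysm clip of 60 g closed for 1 min. The libraries fell into 8 groups. Intact (4 libraries) came from rats that were intact or sham operated, sub-SCI (3 libraries) from injured rats 7 days after injury, when others were transplanted, and the rest from injured rats given hUC-MSCs or PBS on that day. hUC-MSCs are human mesenchymal stem cells from the umbilical cord, injected intrathecally (+MSC), and PBS is the vehicle (+PBS). Treated rats were taken 1, 2 or 4 weeks post-transplantation (wpt), with 3, 2 and 4 libraries of +PBS (+PBS-1w, +PBS-2w and +PBS-4w) and 3, 3 and 4 of +MSC (+MSC-1w and so on). For the 2 wpt groups these numbers follow the labels, in which +PBS-2w is the smaller, whereas the study's methods name +MSC-2w as the smaller. Per the study's methods, cyclosporin A was given daily to suppress the immune response to the human cells. The study's methods speak of biological replicates for each condition, while the labels do not say that replicates of a group came from separate rats. The p-values measure the spread between these libraries, which may be partly technical.

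As background, parvalbumin (Pvalb), calbindin (Calb1) and calretinin (Calb2) are cytosolic proteins whose EF-hand domains bind calcium and so shape its rise after a spike. They mark different sets of spinal interneurons, and Pvalb and Calb2 are also made by sensory neurons whose axons enter the cord while their cell bodies lie in the dorsal root ganglia. The SLC17 vesicular glutamate transporters load glutamate into synaptic vesicles and so define neurons that release it. VGLUT2 (Slc17a6) is the main transporter of excitatory neurons whose cell bodies lie in the cord, VGLUT1 (Slc17a7) protein there lies largely in the endings of large myelinated sensory axons and of corticospinal axons, and VGLUT3 (Slc17a8) is made by few cells. RNA in a cord segment comes mainly from cell bodies inside it.

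Total counts ranged from 19496602 to 43468509 per library. The 12 neuron markers used here summed to between 4498 and 5515 CPM (counts scaled by library size with TMM factors) in the Intact libraries and to between 447 and 1249 CPM in sub-SCI, so neuronal RNA was present in each library and was a smaller part of it after injury. Microglia and macrophage markers moved the other way, from 291 to 469 CPM in Intact against 3009 to 3955 CPM in sub-SCI, as did fibroblast markers, from 41.4 to 879 CPM against 6531 to 13499 CPM. In bulk tissue, fewer cells of a type and less RNA per cell cannot be told apart. One library stood apart from its group in several of the 6 genes, +PBS-4w replicate 1, and results that rest on it are given with and without it. Replicate 1 was the highest library of its group in 5 of the 8 groups for Pvalb, Calb1, Calb2 and Slc17a6, in 4 for Slc17a8 and in 1 for Slc17a7. The labels name no batch behind the replicate number.

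In the Intact cord, Pvalb, Calb2 and Slc17a6 were the abundant members and Slc17a7 and Slc17a8 the scarce ones. Levels of different genes were compared as CPM per kb of the gene's annotated exon length. Pvalb had the highest mean level, 139 ± 14.2 CPM per kb (SD, n = 4), followed by Calb2 at 111 ± 27.7 and Slc17a6 at 46.9 ± 4.89. Calb1 stood at 15.6 ± 3.83, Slc17a7 at 6.40 ± 2.45 and Slc17a8 at 0.275 ± 0.147 CPM per kb. Pvalb and Calb2 are neighbours in that order whose libraries overlapped. The other neighbours were separated in each Intact library. Slc17a8 rested on 13 to 33 counts per Intact library, so its values carry a large counting error.

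Promoter sequence is shown for Slc17a6 and Slc17a7, the 2 transporter genes with the higher levels in the Intact cord, because the windows before their starts differ in base composition. Of the 6 genes, 4 had an entry in the RefSeq table of promoters used here (build GRCr8, which is not the build the reads were aligned to). The 100 bases before the annotated start are printed for these 2 genes, both on the plus strand, with each GC box (GGGCGG, or CCGCCC for the other strand, overlaps counted separately) in capitals. They lie at chr1:110348347-110348446 for Slc17a6 and at chr1:104786105-104786204 for Slc17a7.
Slc17a6: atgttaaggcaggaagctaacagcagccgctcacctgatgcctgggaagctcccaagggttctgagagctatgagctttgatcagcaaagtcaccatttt
Slc17a7: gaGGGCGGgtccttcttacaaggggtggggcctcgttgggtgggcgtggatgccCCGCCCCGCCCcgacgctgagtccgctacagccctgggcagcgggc
The Slc17a7 window held 3 GC boxes at 74% GC, and the Slc17a6 window held none at 50% GC. Of the 33469 promoters in that table, 21.6% held at least 1 GC box in the same window. A match describes these letters only and is no evidence that a factor bound there.

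**Figure D1:**
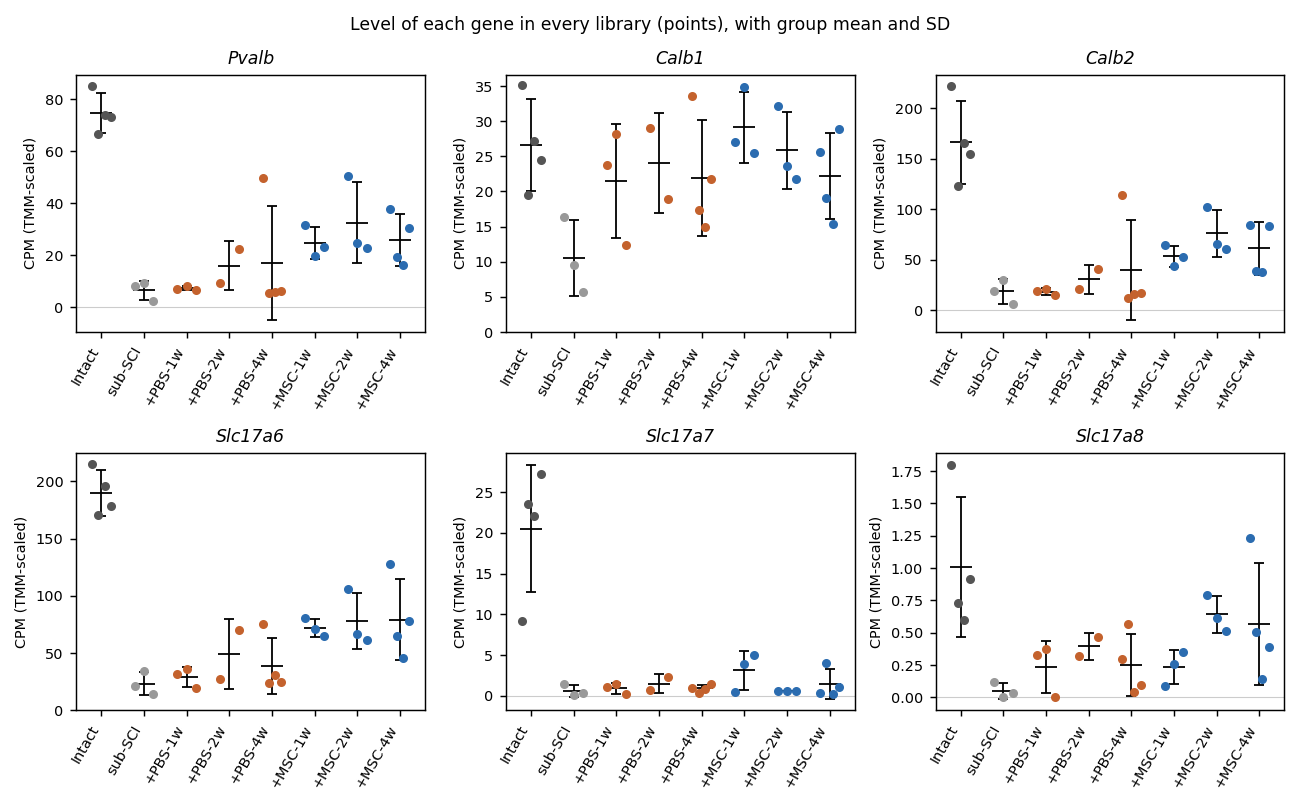
CPM (TMM-scaled) of each of the 6 genes in all 26 libraries by group, with 1 panel per gene and its own linear axis. Points are libraries, and the horizontal bar and whiskers are the group mean and SD. The Intact libraries lie above all sub-SCI libraries in each panel, and 1 +PBS-4w library lies far above the other 3 for Pvalb, Calb2 and Slc17a6.

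The first comparison asks how these genes stood 7 days after injury, before any treatment. All 6 were lower in sub-SCI than in Intact and were differentially expressed genes (DEGs), which here means that edgeR's quasi-likelihood test gave an adjusted p under 0.01 with a log2 fold change beyond 1 either way. Of all genes tested, 17.5% were lower DEGs in this comparison. The ranges of the 2 groups did not overlap for any of the 6 genes, which was so in the same direction for 34% of all genes. The median log2 fold change of the 6 genes was -3.33, against -0.02 over all genes.

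Among the calcium-binding protein genes, Pvalb had 85.0, 66.6, 74.0 and 73.3 CPM in the Intact libraries and 8.17, 9.21 and 2.51 CPM in sub-SCI. The highest injured library was thus far below the lowest intact one. The log2 fold change was -3.49 ± 0.684 (SE; edgeR, adjusted p = 0.000147), 11.3-fold lower. Calb2 had 222, 123, 166 and 154 CPM in Intact against 19, 30.1 and 6.10 CPM in sub-SCI. It was 9.04-fold lower, a log2 fold change of -3.18 ± 0.676 (SE; edgeR, adjusted p = 0.000344). Calb1 had 35.1, 19.5, 27.2 and 24.4 CPM in Intact and 16.4, 9.50 and 5.70 CPM in sub-SCI. Here the gap between the groups was narrow, and the log2 fold change was -1.33 ± 0.350 (SE; edgeR, adjusted p = 0.00238). The Calb1 call was lost without Intact replicate 1 (-1.10, adjusted p = 0.0124), without sub-SCI replicate 2 (-1.26, adjusted p = 0.0131), without sub-SCI replicate 3 (-1.03, adjusted p = 0.0221) and with edgeR on these 2 groups alone (-1.29, adjusted p = 0.0126).

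Among the transporter genes, Slc17a6 had 215, 170.4, 196 and 178 CPM in the Intact libraries and 21.3, 34.0 and 14.4 CPM in sub-SCI. Its 4 intact libraries lay close together, and its log2 fold change of -3.03 ± 0.448 (SE) had the smallest adjusted p of the 6 genes (edgeR, 5.46e-06). Slc17a7 had 9.22, 23.6, 22.1 and 27.3 CPM in Intact and 1.45, 0.0362 and 0.339 CPM in sub-SCI, the last 3 from 50, 1 and 10 counts. Its log2 fold change was -5.02 ± 1.04 (SE; edgeR, adjusted p = 0.000259), the largest of the 6 genes in this comparison and with a wide error. Intact replicate 1 held less than any other Intact library, although it was the highest Intact library for the other 5 genes. Slc17a8 fell from 33, 16, 13 and 24 counts (1.80, 0.733, 0.601 and 0.912 CPM) to 4, 0 and 1 counts. The count of 0 allows up to 0.109 CPM at a limit of 3 counts, which covers counting error only. The fitted log2 fold change of Slc17a8 was -4.12 ± 0.979 (SE; edgeR, adjusted p = 0.000984), and its size is poorly determined at this depth.

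Genes of related function were read from lists chosen with results of these data known, and how many of them fell differed between the lists. Of 15 other neuronal EF-hand calcium-binding genes tested, 11 were lower and 0 higher in sub-SCI than in Intact, with a list median of -2.56 on the log2 scale against -0.02 over all genes. Caln1, a calneuron gene, fell by 4.65 on the log2 scale (adjusted p = 3.85e-08), the potassium channel subunit gene Kcnip4 fell by 3.28 (adjusted p = 1.03e-06) and Necab1 fell by 2.56 (adjusted p = 1.64e-06; edgeR for all 3). Of the 3 other SLC17 genes tested, none of which encodes a vesicular glutamate transporter, 1 was higher and 0 were lower. That was Slc17a9, the vesicular nucleotide transporter gene, with a log2 fold change of 2.80 ± 0.234 (SE; edgeR, adjusted p = 2.45e-09). Of 11 genes of glutamate synthesis and uptake, 4 were lower and 0 higher. They included Slc1a2, the glutamate transporter GLT-1 of astrocytes, at -3.03 (adjusted p = 2.2e-06), the aminotransferase gene Got1 at -2.03 (adjusted p = 1.06e-05) and the glutamine transporter gene Slc38a3 at -1.03 (adjusted p = 6.08e-07).

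Markers of other interneurons and of other cells that the segment could hold were read beside these values. All 7 inhibitory interneuron genes were lower in sub-SCI (list median -2.93), among them Pax2 (-3.16, edgeR adjusted p = 4.59e-07), the glycine transporter gene Slc6a5 (-4.15, adjusted p = 2.17e-06) and the GABA synthesis gene Gad2 (-2.93, adjusted p = 1.29e-05). All 12 neuron markers were lower (median -2.62), as were 4 of 7 ventral interneuron genes (-2.76), including Shox2 (-3.35) and the nicotinic receptor gene Chrna2 (-2.76). Of 8 dorsal horn excitatory interneuron genes, 3 were lower and 1 higher. The lower ones included Lmx1b (-2.63), and the higher one was the transcription factor gene Maf (2.06, adjusted p = 5.72e-07), which macrophages also express. Of 6 oligodendrocyte markers 4 were lower (-1.14), and of 6 astrocyte markers 4 were lower (-1.33). All 8 microglia and macrophage markers (3.56, with Cd68 at 7.41), all 6 fibroblast markers (4.09, with Postn at 5.06) and 2 of 5 Schwann cell markers (0.80, Ngfr and Egr2) were higher. Of all genes, 17.5% were lower DEGs in this comparison. The share of higher DEGs in the same fit is not given here, and edgeR on these 2 groups alone called 17.6% of genes as higher. The part of these shifts in tissue makeup in the 6 genes' values was not tested beyond the scaling to neuron markers given below.

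Skeletal muscle and dorsal root ganglion make Pvalb, and the ganglion also makes other members, Slc17a7 and Calb2 among them. Markers of both tissues were therefore read in the same libraries. The 7 muscle markers in the table summed to between 15.1 and 415 CPM in Intact, where the top value was replicate 4 with 160.0 CPM of Acta1, the skeletal actin gene. Pvalb was 73.3 CPM in that library, inside the range of the other 3. In +PBS-4w replicate 2 the muscle markers reached 285 CPM and Pvalb was 5.57 CPM, the lowest of its group. The 8 sensory ganglion markers summed to between 26.3 and 35.0 CPM in Intact and between 13.3 and 15.4 CPM in sub-SCI. Of the sensory ganglion markers 3 of 7 tested were lower DEGs in sub-SCI, and of the muscle markers 1 of 7, where 17.5% of all genes were.

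The next 3 comparisons set vehicle-treated rats at 1, 2 and 4 wpt against the same 4 Intact libraries, so they share those libraries with each other and with the comparison above. At 1 wpt, 4 of the 6 genes were lower DEGs (12.5% of all genes were), and at 4 wpt again 4 were (10.7% of all genes). At 2 wpt, with 2 +PBS libraries, 1 was (5.66% of all genes). Slc17a6 was a lower DEG at each of the 3 times, and Calb1 at none.

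Pvalb had 7.22, 8.17 and 6.73 CPM in +PBS-1w, 9.51 and 22.6 CPM in +PBS-2w, and 49.9, 5.57, 6.08 and 6.33 CPM in +PBS-4w. Except for the first +PBS-4w library, all of them stood far below the lowest Intact library. The log2 fold changes against Intact were -3.34 ± 0.679 (SE, adjusted p = 0.000301), -2.22 ± 0.751 (adjusted p = 0.0249) and -2.13 ± 0.572 (adjusted p = 0.00355; edgeR throughout). Calb2 had 19.3, 21.0 and 14.5 CPM in +PBS-1w, 20.4 and 40.4 CPM in +PBS-2w, and 114, 12.1, 15.7 and 16.4 CPM in +PBS-4w. Its log2 fold changes were -3.18 ± 0.676 (SE, adjusted p = 0.000462), -2.45 ± 0.768 (adjusted p = 0.0163) and -2.06 ± 0.574 (adjusted p = 0.00471). In both genes the mean at 4 wpt was raised by +PBS-4w replicate 1. Without it the +PBS-4w mean was 6.0 ± 0.386 CPM for Pvalb and 14.7 ± 2.31 CPM for Calb2 (SD, n = 3), 8.03% and 8.87% of the Intact means, and the log2 fold changes were -3.59 (adjusted p = 5.6e-07) and -3.45 (adjusted p = 1.56e-06). With replicate 1 kept and replicate 2, 3 or 4 left out, both calls were lost (Pvalb -1.84 to -1.86, adjusted p = 0.0138 to 0.0142, and Calb2 -1.76 to -1.81, adjusted p = 0.0171 to 0.0187), as was that of Calb2 without Intact replicate 1 (-1.84, adjusted p = 0.0159).

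Calb1 had 23.8, 28.1 and 12.4 CPM in +PBS-1w, 29.1 and 19 CPM in +PBS-2w, and 33.6, 17.3, 14.9 and 21.8 CPM in +PBS-4w. All 3 groups overlapped Intact, and their means were 80.8%, 90.5% and 82.5% of the Intact mean. The log2 fold changes of Calb1 were -0.31 ± 0.338 (SE, adjusted p = 0.465), -0.14 ± 0.382 (adjusted p = 0.801) and -0.28 ± 0.312 (adjusted p = 0.483; edgeR throughout), and the errors leave room for moderate differences in either direction. Against sub-SCI, Calb1 stood at 1.02 ± 0.365 in +PBS-1w (SE, adjusted p = 0.126) and at 1.05 ± 0.347 in +PBS-4w (adjusted p = 0.03), neither of them a DEG.

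Slc17a6 had 31.3, 36.1 and 19.5 CPM in +PBS-1w, 27.7 and 70.6 CPM in +PBS-2w, and 75.2, 24.1, 30.6 and 24.6 CPM in +PBS-4w. All 9 of these libraries lay below the lowest Intact library, and in 30.5%, 31.3% and 21.3% of all genes every +PBS library did so at 1, 2 and 4 wpt. The log2 fold changes were -2.71 ± 0.441 (SE, adjusted p = 2.86e-05), -1.95 ± 0.498 (adjusted p = 0.00441) and -2.30 ± 0.387 (adjusted p = 4.56e-05; edgeR throughout). The call at 2 wpt was lost without +PBS-2w replicate 1, which left 1 library in that group, assumed to vary like the others (-1.40, adjusted p = 0.132). Slc17a7 had 1.07, 1.45 and 0.200 CPM in +PBS-1w, 0.704 and 2.28 CPM in +PBS-2w, and 0.894, 0.353, 0.850 and 1.47 CPM in +PBS-4w. No +PBS library of Slc17a7 came near the lowest Intact library, and the group means were 4.42%, 7.27% and 4.34% of the Intact mean. Its log2 fold changes were -4.48 ± 1.01 (SE, adjusted p = 0.000775), -3.78 ± 1.15 (adjusted p = 0.0134) and -4.54 ± 0.899 (adjusted p = 0.000251). Slc17a8 lay between 0 and 0.564 CPM in the 9 +PBS libraries, from 0 to 16 counts each, with log2 fold changes of -2.05, -1.34 and -1.94 that did not make it a DEG (adjusted p = 0.038, 0.25 and 0.0317).

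**Figure D2:**
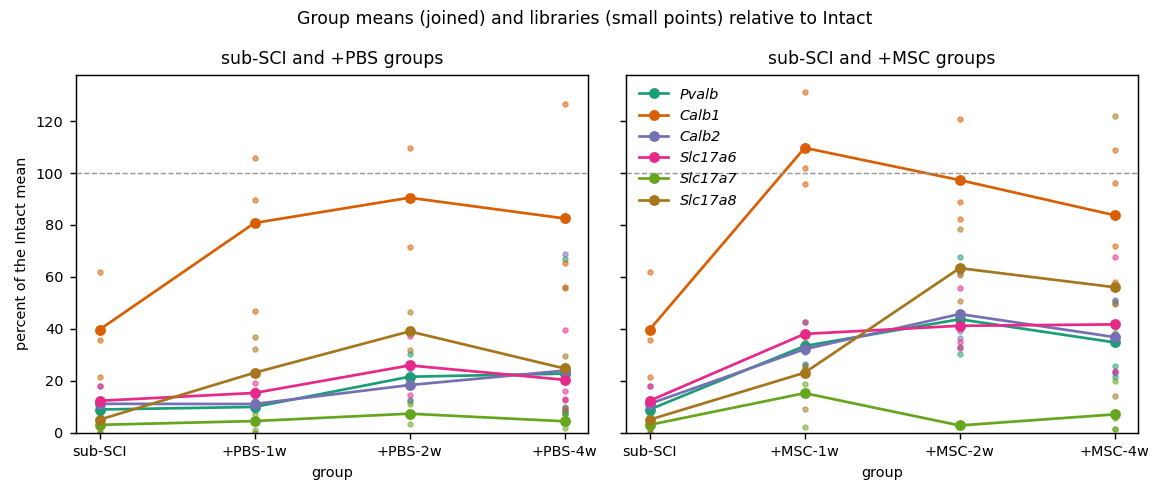
Group means of the 6 genes as a percent of the Intact mean (dashed line at 100), for sub-SCI and the +PBS groups on the left and for sub-SCI and the +MSC groups on the right. Large joined points are group means, small points are libraries, and each group holds different samples. Calb1 means lie between 80.8% and 109.7% after sub-SCI, Slc17a7 means stay at or below 15.2%, and Pvalb, Calb2 and Slc17a6 means then lie between 9.87% and 45.7%.

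The comparison of +MSC with +PBS at the same week asks whether levels differed with transplantation. No member was a DEG at 1, 2 or 4 wpt by edgeR on all libraries. Few genes of any kind were: 0%, 0% and 0.495% of all genes were higher DEGs at the 3 weeks. At an unadjusted p under 0.05 there were 3, 0 and 1 members of 6, and 17.9%, 12.3% and 22.5% of all genes. DESeq2 on all libraries called 0 members at each week, where it called 0.174%, 0.0186% and 1.66% of genes as higher. DESeq2 on the 2 groups alone called 3 members as higher at 1 wpt (Pvalb, Calb2 and Slc17a6), 1 at 2 wpt (Calb2) and 0 at 4 wpt, where it called 1.43%, 0.48% and 1.35% of genes. With edgeR on the 2 groups alone, 0 genes were called at any of the 3 weeks.

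At 1 wpt Pvalb had 31.7, 19.7 and 23.3 CPM in +MSC, Calb2 had 64.0, 43.4 and 52.7 CPM and Slc17a6 had 80.7, 71.3 and 64.7 CPM. For these 3 genes every +MSC-1w library lay above every +PBS-1w library, as in 15.3% of all genes. Their log2 fold changes were 1.76 ± 0.662 (SE, adjusted p = 0.176), 1.55 ± 0.657 (adjusted p = 0.22) and 1.32 ± 0.435 (adjusted p = 0.141; edgeR throughout). Calb1 at 27.1, 34.9 and 25.4 CPM overlapped +PBS-1w, with a log2 fold change of 0.44 ± 0.359. Slc17a7 at 0.451, 3.86 and 5.04 CPM was widely spread, and its difference of 1.75 ± 0.959 did not pass (adjusted p = 0.349). Slc17a8, at 3, 7 and 9 counts, differed by -0.06 ± 0.897.

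At 2 wpt Pvalb had 50.5, 24.7 and 22.7 CPM in +MSC and Calb2 had 102, 65.0 and 60.3 CPM. Both lay above their 2 +PBS-2w libraries, Pvalb only narrowly. Slc17a6 at 106, 66.4 and 61.9 CPM overlapped +PBS-2w, as did Calb1 at 32.1, 23.6 and 21.8 CPM. Slc17a7 was low and even, at 0.543, 0.575 and 0.565 CPM, below both +PBS-2w libraries, with a log2 fold change of -1.41 ± 1.11 (SE; edgeR, adjusted p = 0.625). Slc17a8 had 0.794, 0.616 and 0.514 CPM, above both +PBS-2w libraries. Of all genes, 18.6% were higher and 18.4% lower in +MSC-2w without overlap. The log2 fold changes of the other 5 members lay between 0.11 and 1.32, with adjusted p from 0.474 to 0.958. These values turned on which +PBS-2w library was kept (a lone library is assumed to vary like the other groups). Without replicate 1 they were 0.15 for Slc17a6, 0.53 for Pvalb and 0.91 for Calb2, and without replicate 2 they were 1.5, 1.78 and 1.89, none of them past the threshold.

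At 4 wpt Pvalb had 38.0, 19.2, 16.1 and 30.5 CPM, Calb2 had 84.7, 39.1, 37.9 and 82.9 CPM, and Slc17a6 had 128, 64.6, 45.3 and 78.5 CPM in +MSC. In each of the 3 genes all 4 +MSC libraries lay above 3 of the +PBS libraries. The share of all genes with this pattern was not counted, so it is no result about these genes. The remaining one, +PBS-4w replicate 1, lay above all 4 for Pvalb and Calb2 and inside their range for Slc17a6. The log2 fold changes were 0.61 ± 0.554 (SE, adjusted p = 0.543), 0.62 ± 0.556 (adjusted p = 0.535) and 1.03 ± 0.374 (adjusted p = 0.109; edgeR throughout). Without +PBS-4w replicate 1 all 3 were higher DEGs, Pvalb at 2.08 (adjusted p = 0.00321), Calb2 at 2.02 (adjusted p = 0.00433) and Slc17a6 at 1.55 (adjusted p = 0.0062). Without that library 2.95% of all genes were DEGs in either direction. Calb1 had 25.6, 19.1, 15.4 and 28.9 CPM in +MSC-4w, with a difference of 0.02 ± 0.311, and Slc17a8 0.143 to 1.23 CPM, with a difference of 1.11 ± 0.740. Slc17a7 had 0.318, 4.07, 0.250 and 1.12 CPM. The single high library, +MSC-4w replicate 2, set the sign of its difference, which was 0.76 ± 0.843 with it and -0.67 without it (neither past the threshold). That library also had 18.4 CPM of Avil, the highest of any library but Intact replicate 1, and the sensory ganglion markers summed to 50.2 CPM in it, the highest of the 26 libraries. Their part in its Slc17a7 value was not tested.

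Averaged over the 3 weeks, 1 member was a higher DEG in +MSC than in +PBS, as were 1.61% of all genes. It was Slc17a6, with a log2 fold change of 1.01 ± 0.253 (SE; edgeR, adjusted p = 0.00776), 2.01-fold. This value sat at the fold threshold. The Slc17a6 call was lost, at 0.81 to 1.04 and adjusted p = 0.0107 to 0.0635, in 13 of the 19 fits that left out 1 library: +PBS-1w replicates 1 and 3, +PBS-2w replicate 1, +PBS-4w replicates 2, 3 and 4, +MSC-1w replicates 1, 2 and 3, +MSC-2w replicates 1 and 2, and +MSC-4w replicates 1 and 4. It was also lost, just under the fold threshold, with median-of-ratios factors (0.997), with no filter on low counts (0.997), with at least 10 counts in every library (0.984), with a term for replicate 1 (0.994) and under DESeq2 on all libraries (0.997, adjusted p = 0.000796). DESeq2 called a different member, Calb2 at 1.16 (adjusted p = 0.00837), and 1.91% of genes as higher. Pvalb at 1.13 ± 0.379 (adjusted p = 0.0356) and Calb2 at 1.16 ± 0.381 (adjusted p = 0.0318) were not DEGs, and without +PBS-4w replicate 1 they were, at 1.6 (adjusted p = 0.000142) and 1.61 (adjusted p = 0.000183), where 4.97% of all genes were in either direction. Calb1 at 0.19 ± 0.208, Slc17a7 at 0.37 ± 0.569 and Slc17a8 at 0.58 ± 0.498 did not pass, with adjusted p of 0.559, 0.689 and 0.433.

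The difference between +MSC and +PBS was not found to vary with the week in any member. None of the tests of a change in that difference between 2 weeks called a member by edgeR, and DESeq2 on all libraries called none. By edgeR, none of all genes tested was a DEG either (0% each time). DESeq2 on all libraries called 0.00379% of genes as higher from week 1 to week 2 and 0.00379% as lower from week 1 to week 4. At an unadjusted p under 0.05 there was 1 member, Slc17a7 from week 1 to week 2, at -3.16 ± 1.46 on the log2 scale (SE) with an edgeR adjusted p of 1.

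Listed genes of related function were read in the same averaged comparison, in which the median over all genes was -0.02. The genes named for it were picked after their values were seen, since the calls were few. Of the 15 EF-hand genes, 2 were higher and 0 lower (median 0.83), Caln1 at 1.33 (edgeR adjusted p = 0.00119) and Ncs1, the neuronal calcium sensor gene, at 1.04 (adjusted p = 0.00592). Of the 7 inhibitory interneuron genes, 3 were higher (median 1.02), Pax2 at 1.28 (adjusted p = 0.000747), Slc6a5 at 1.34 (adjusted p = 0.00457) and Gad2 at 1.02 (adjusted p = 0.00874). Of the 12 neuron markers 2 were higher (median 0.88), of the 7 ventral interneuron genes 1 (0.61), and of the 7 sensory ganglion markers 2 (1.00). The neuron markers summed to between 781 and 2891 CPM in the 9 +PBS libraries and to between 2174 and 3790 CPM in the 10 +MSC libraries, and the sensory ganglion markers to between 11.7 and 24.1 CPM and between 16.8 and 50.2 CPM. Apart from the rescaling below, their part in the members' differences was not tested. No gene of the glutamate synthesis and uptake, other SLC17, dorsal horn excitatory, muscle, microglia and macrophage, oligodendrocyte, astrocyte, fibroblast or Schwann cell lists was a DEG in it. In the weekly comparisons of +MSC with +PBS, 1 listed gene was a DEG, the sensory neuron transcription factor gene Pou4f1 at 4 wpt (3.43 ± 0.543, SE; edgeR, adjusted p = 0.00312).

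Levels with hUC-MSCs were also set against the Intact and sub-SCI libraries. Against Intact, 0, 1 and 1 members were lower DEGs at 1, 2 and 4 wpt, where 2.63%, 0.461% and 1.53% of all genes were. The member was Slc17a7 both times, at -5.18 ± 1.07 (SE; edgeR, adjusted p = 0.00129) and -3.78 ± 0.849 (adjusted p = 0.00199), 2.73% and 7.00% of the Intact mean. The call at 2 wpt was lost without +MSC-2w replicate 2 or 3 (0 members), and at 4 wpt 2 members were called without +MSC-4w replicate 1. At 1 wpt 5 members and 43.4% of all genes had an unadjusted p under 0.05. DESeq2 called 1 member as lower on all libraries, where it called 3.84% of genes, and 5 on the 2 groups, where it called 4.75%. Every +MSC library of Pvalb, Calb2 and Slc17a6 lay below every Intact library at each week, at 32.1% to 45.7% of the Intact mean, and 25.5%, 21.3% and 20.4% of all genes were lower without overlap at 1, 2 and 4 wpt. Calb1 overlapped Intact at each week, at 109.7%, 97.3% and 83.7%. Against sub-SCI, Calb1 (1.47 ± 0.367, adjusted p = 0.00506) and Slc17a6 (1.64 ± 0.439, adjusted p = 0.00789) were higher DEGs in +MSC-1w, where 6.46% of all genes were. In +MSC-4w Slc17a6 was (1.77 ± 0.423, adjusted p = 0.00211), where 10.2% of all genes were. The 2 calls at 1 wpt fell to 1 or 0 whenever any 1 of the 6 libraries was left out (0 without sub-SCI replicate 3 or +MSC-1w replicate 1 or 2), and at 4 wpt 0 members were called without sub-SCI replicate 3 and 2 without +MSC-4w replicate 3. DESeq2 on all libraries called 2 and 4 members as higher, where it called 6.91% and 9.67% of genes, and edgeR on the 2 groups alone called 1 and 0, where it called 3.55% and 8.14%. In the +PBS groups no member was a DEG against sub-SCI at 1 or 4 wpt (edgeR, with 1 and 3 members and 18.6% and 36.9% of all genes at an unadjusted p under 0.05, while DESeq2 on all libraries called 0 members at both), where 0.05% and 4.28% of all genes were higher DEGs by edgeR. DESeq2 on all libraries called 0.815% and 4.87% of genes as higher there. From 1 to 4 wpt no member was a DEG within either arm (edgeR and DESeq2, 0 members at an unadjusted p under 0.05 in edgeR). Of all genes, edgeR called 0.0389% in +PBS and 0% in +MSC. DESeq2 on all libraries called 0.685% as lower and 0.243% as higher in +PBS, and 0% and 0.00379% in +MSC. In +PBS the log2 difference was 1.21 ± 0.625 for Pvalb and 1.12 ± 0.621 for Calb2 (SE), which leaves room for a change. Without +PBS-4w replicate 1 their +PBS-4w means were 6.0 and 14.7 CPM, below the +PBS-1w means of 7.37 and 18.3 CPM.

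To ask how the 6 genes moved relative to neuronal RNA, each library was rescaled so that the geometric mean of the 12 neuron markers was constant. This moved the median of all genes to 2.77 in sub-SCI against Intact, to 2.05, 1.57 and 2.1 in +PBS against Intact at 1, 2 and 4 wpt, and to -1.05 in +MSC against +PBS averaged over weeks, so values below are relative to the neuron markers and are read against these medians. The rescaled log2 fold change of Slc17a6 was -0.44 ± 0.258 in sub-SCI and -0.76 ± 0.260, -0.56 ± 0.297 and -0.45 ± 0.237 in the 3 +PBS groups (SE), none of them a DEG. In +PBS-1w its adjusted p of 0.00949 passed and its fold did not. Its averaged +MSC difference shrank from 1.01 to 0.10 ± 0.158 (edgeR, adjusted p = 0.554). Pvalb and Calb2 were lower DEGs at 1 wpt only, Pvalb at -1.31 ± 0.414 (adjusted p = 0.00558) and Calb2 at -1.18 ± 0.401 (adjusted p = 0.00881), where 0.172% of all genes were lower DEGs. Leaving out Intact replicate 1 or 4 or +PBS-1w replicate 1 or 2 ended the Pvalb call (-1.12 to -1.28), and leaving out any library but Intact replicate 2 ended the Calb2 call (-1.05 to -1.37). With 4 of the neuron markers as the scale (Rbfox3, Elavl3, Elavl4 and Celf4) neither call was made (Pvalb -1.26, adjusted p = 0.0237, and Calb2 -1.14, adjusted p = 0.0338), and a replicate block also ended that of Calb2 (-1.13, adjusted p = 0.0107). Both were lower DEGs at 4 wpt without +PBS-4w replicate 1, at -1.40 (adjusted p = 4.25e-05) and -1.26 (adjusted p = 0.000117). The share of all genes called in that fit is not given here. With all libraries kept, 0.0611% of all genes were lower DEGs at 4 wpt. The averaged +MSC differences of Pvalb and Calb2 became 0.26 ± 0.247 and 0.31 ± 0.241.

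Calb1 stood above the neuron markers after injury. Its rescaled log2 fold change against Intact was 1.26 ± 0.312 in sub-SCI (SE; edgeR, adjusted p = 0.000599), 1.62 ± 0.312 in +PBS-1w (adjusted p = 5.27e-05), 1.52 ± 0.341 in +PBS-2w (adjusted p = 0.00057) and 1.66 ± 0.297 in +PBS-4w (adjusted p = 1.78e-05), a DEG each time. On this scale 82.1%, 76.2%, 60.2% and 80.5% of all genes were higher DEGs, and Calb1 was below the median gene in each comparison. The call in +PBS-2w was lost without +PBS-2w replicate 1 (0.61, adjusted p = 0.2). In +MSC against +PBS averaged over weeks it was -0.80 ± 0.192 (adjusted p = 0.000648), under the fold threshold, while 51.9% of all genes were lower DEGs. At 4 wpt it was a lower DEG at -1.09 ± 0.292 (adjusted p = 0.00382), as were 53.1% of all genes. That call was lost without +PBS-4w replicate 2 (-1.0, adjusted p = 0.0187), +MSC-4w replicate 1 (-1.06, adjusted p = 0.0167) or +MSC-4w replicate 4 (-1.22, adjusted p = 0.0129). Against Intact, Calb1 gave 1.15, 0.67 and 0.57 on this scale in +MSC at 1, 2 and 4 wpt. It was a higher DEG at 1 wpt only (edgeR, adjusted p = 0.00613), where the median gene stood at 0.98 and the share called is not given here.

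Slc17a7 stood below the neuron markers, at -2.45 ± 0.939 in sub-SCI, -2.71 ± 0.936 in +PBS-1w, -2.45 ± 1.08 in +PBS-2w and -2.59 ± 0.839 in +PBS-4w (SE). Only the last was a DEG (edgeR, adjusted p = 0.00603), where 0.0611% of all genes were lower DEGs, and leaving out Intact replicate 2, 3 or 4 or +PBS-4w replicate 1, 2 or 3 ended that call (adjusted p = 0.0103 to 0.0199). Without sub-SCI replicate 1 the difference in sub-SCI passed (-3.59, adjusted p = 0.009), as did that in +PBS-1w without Intact replicate 1 (-2.96, adjusted p = 0.00733) and with the 4 markers as the scale (-2.67, adjusted p = 0.00842). The shares of all genes called in these fits are not given here. Slc17a8 gave -1.63 ± 0.998 in sub-SCI and between -0.29 and 0.15 in the +PBS groups, with no call. Averaged over weeks, +MSC differed from +PBS by -0.42 ± 0.541 for Slc17a7 and by -0.36 ± 0.496 for Slc17a8 on this scale. Against Intact, Slc17a7 gave -1.66, -4.47 and -2.89 in +MSC at 1, 2 and 4 wpt. It was a lower DEG at 2 wpt only (edgeR, adjusted p = 0.00378), where the median gene stood at 0.70 and the share called is not given here.

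**Figure D3:**
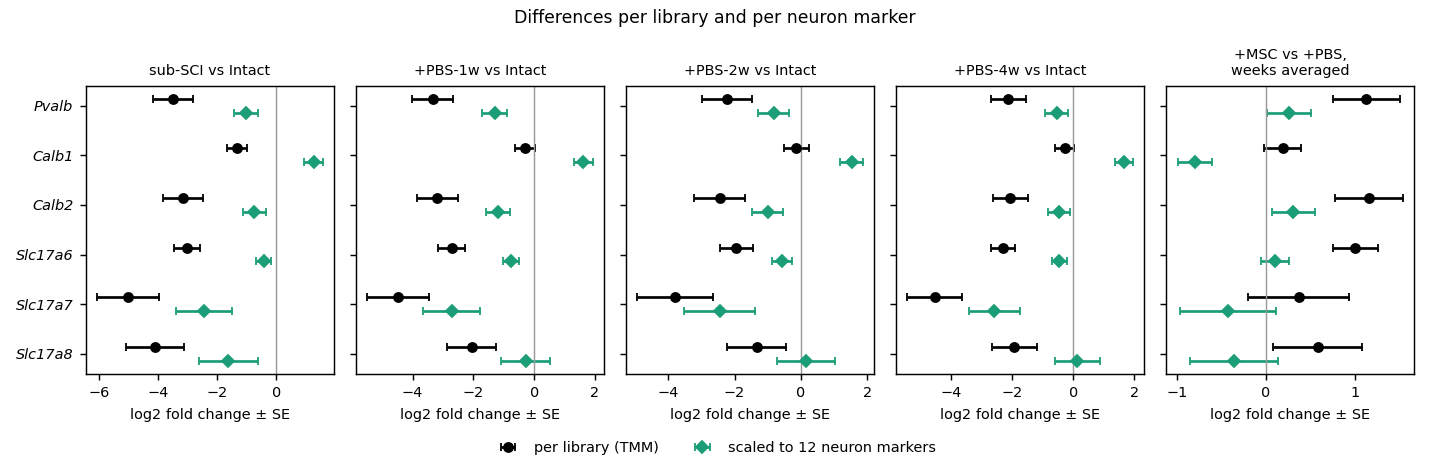
Log2 fold change ± SE of each gene in 5 comparisons, per library (TMM scaling, black circles) and after scaling to 12 neuron markers (green diamonds). Each panel has its own horizontal axis, with 0 marked by a line. Calb1 lies to the right of 0 in the 4 injury panels after rescaling, and Slc17a6 moves to between -0.76 and 0.10 in all 5.

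The balance of excitatory and inhibitory vesicular transporters was measured in each library as the log2 ratio of Slc17a6 to Slc32a1, the transporter gene of GABA and glycine vesicles, with 0.5 CPM added to each. Slc32a1 fell from 196 ± 37.9 CPM in Intact (SD, n = 4) to 16.4 ± 11.6 CPM in sub-SCI (SD, n = 3). The ratio was -0.23, -0.09, 0.10 and 0.08 in Intact and 0.31, 0.29 and 1.59 in sub-SCI. All sub-SCI libraries lay above all Intact ones, with the third of them, which had 4.44 CPM of Slc32a1, far above the other 2. The difference was 0.77 on the log2 scale (two-sided exact permutation test, p = 0.0286, the smallest this design allows, adjusted p = 0.168 over 8 tests), and 0.34 without sub-SCI replicate 3. The mean ratio was -0.06 ± 0.216 in +PBS-1w, 0.01 ± 0.0975 in +PBS-2w and 0.10 ± 0.362 in +PBS-4w (SD), none separated from Intact (exact permutation tests, p = 0.886, 0.733 and 0.543). The smallest p that the 4 against 2 libraries at 2 wpt allow is 0.0667 in this exact permutation test.

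In +MSC the ratio was -0.50, -0.35 and -0.72 at 2 wpt, below both +PBS-2w libraries at -0.06 and 0.08. The difference of -0.53 had an exact permutation p of 0.1, the smallest that 3 against 2 libraries allow, and an adjusted p of 0.267. At 1 wpt the difference was -0.01 (exact permutation test, p = 1) and at 4 wpt -0.22 (exact permutation test, p = 0.286). At 4 wpt, +PBS-4w replicate 1 had a ratio of -0.44 against 0.34, 0.21 and 0.28 in the other 3, and without it the difference was -0.40 (exact permutation test, p = 0.0286, the smallest that 4 against 3 libraries allow). Averaged over the 3 weeks the ratio was lower in +MSC by 0.25 on the log2 scale (two-sided exact permutation within weeks, p = 0.042), which did not pass after adjustment over the 8 tests (adjusted p = 0.168).

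**Figure D4:**
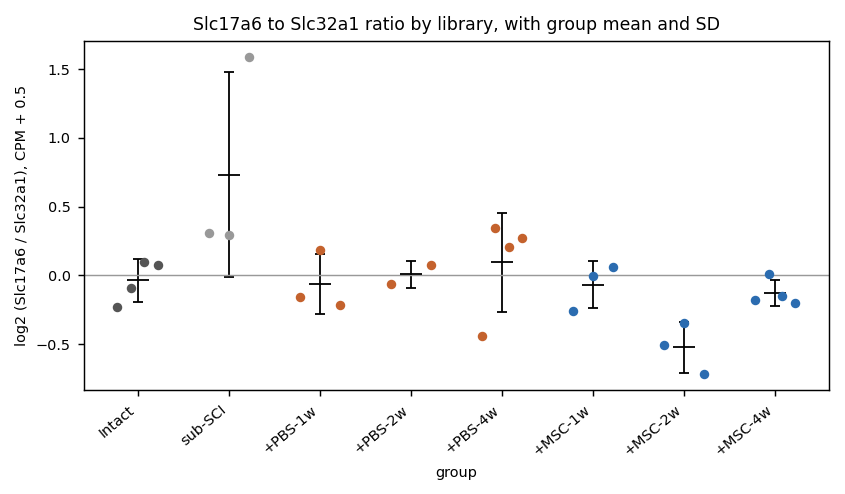
Log2 ratio of Slc17a6 to Slc32a1 (CPM + 0.5) in each library by group, with group mean and SD. The 3 sub-SCI libraries lie above the Intact libraries, and the 3 +MSC-2w libraries lie between -0.72 and -0.35, below the other groups except for +PBS-4w replicate 1 at -0.44.

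The 6 genes varied together to different degrees. As a description over the 26 libraries, which share the group differences above, Pearson's r of log2 CPM was 0.99 between Pvalb and Calb2, 0.97 between Pvalb and Slc17a6 and 0.96 between Calb2 and Slc17a6. Taken as deviations from the group means the same pairs gave 0.97, 0.89 and 0.89. Calb1 had r between 0.43 and 0.66 with the other members, and Slc17a7 between 0.43 and 0.64. As deviations from the group means, r of Slc17a7 with Pvalb, Calb2 and Slc17a6 was -0.02, -0.06 and 0.01. Among the 3 genes most like each member by r over the 26 libraries were Calb2 (0.99), Klc2 (0.99) and AABR07017145.1 (0.99) for Pvalb, Pvalb (0.99), Tmem59l (0.99) and Lin7b (0.99) for Calb2, and Necap1 (0.99) and Cxxc4 (0.98) for Slc17a6. They also included Scg3, Aldh1a1 and Ccdc181 (0.85 to 0.86) for Calb1, Pkd1l2, Opa3 and Acat2 (0.80 to 0.81) for Slc17a7, and Clcn1, Atp7b and Meis2 (0.83 to 0.84) for Slc17a8. No gene followed Calb1, Slc17a7 or Slc17a8 as closely as the listed genes followed Pvalb, Calb2 and Slc17a6.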

How the data were processed

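Per the study's methods and the labels, poly(A) RNA was sequenced in read pairs, trimmed with Trim Galore 0.5.0, cleared of reads that aligned to the human genome, aligned to Rnor6 with HISAT2 2.1.0, filtered for proper pairs with SAMtools 1.9 and counted per gene with featureCounts 1.6.4. The annotation release and strand setting are not given in the sources used here. The deposited values were raw counts made by the authors for 32883 Ensembl genes, of which 6513 were 0 in every library. Removal of human reads may also take rat reads of conserved genes.

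The 26 libraries were grouped by their labels. Counts were fitted with edgeR 4.0.16 (R 4.3.3; TMM factors, filterByExpr, 1 quasi-likelihood model of 8 groups), with Benjamini-Hochberg adjustment over 17990 genes. DEGs passed an adjusted p of 0.01 and a log2 fold change of 1 in either direction. SE is the absolute log2 fold change divided by the square root of F. A second fit scaled libraries to the geometric mean of the counts of 12 neuron markers (Rbfox3, Snap25, Syt1, Syn1, Syn2, Stmn2, Stmn3, Elavl3, Elavl4, Celf4, Tubb3 and Map2), with 0.5 added to each count. The scripts were tested on simulated counts. Alternatives were DESeq2 1.42.0, other factors, filters and thresholds, the 2 groups alone, replicate terms and leaving out each library. Floors were set at 3 counts and cover counting error only. Members and gene lists were chosen with earlier results of these data known. Named genes were the members, at most 3 DEGs per list and comparison with the smallest adjusted p, and the 3 genes most like each member. A few genes that this rule names are not reported here. Of the listed genes, 6 were not found in the table by symbol and 1 symbol was ambiguous.

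Replicate numbers were checked for pairing by correlating deviations from group means. For +PBS-1w and sub-SCI the correlations of same-numbered libraries were 0.19, 0.20 and 0.41. They were also all above 0 for +PBS-1w and Intact (0.24, 0.05 and 0.18), +MSC-1w and Intact (0.22, 0.07 and 0.04), and +MSC-4w and +PBS-4w (0.17, 0.23, 0.02 and 0.19). Libraries with different numbers were not correlated as a reference, so this check cannot decide whether the numbers pair libraries. The labels do not say so.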

Additional observations from a re-analysis of the deposited data

Results flagged for a closer look

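The 3 values flagged were all of +PBS-4w replicate 1 and lay apart from the other 3 libraries of the group by Dixon's test at the 95% level. They were Pvalb at 49.9 CPM, Calb2 at 114 CPM and Slc17a6 at 75.2 CPM, with a gap to the nearest library of 0.983, 0.958 and 0.873 of the group's range, each above the critical value for 4 libraries. Chance flags about 1 in 20 tests, and 21 tests were made, on the 6 genes and the ratio below in each of the 3 groups of 4 libraries. The 3 flagged genes varied together within groups (r of 0.89 to 0.97), so their flags are not separate events. In the same library Slc32a1 had 102 CPM against 18.9 to 26.4 CPM in the rest of the group. The 12 neuron markers summed to 2891 CPM there, the highest of its group, which had a median of 1151 CPM. Single neuron markers differed, with Snap25 the highest of its group at 739 CPM and Elavl3 the lowest at 12.7 CPM. Microglia and macrophage markers (2657 CPM), oligodendrocyte markers (27183 CPM) and astrocyte markers (20021 CPM) were also highest there. Fibroblast and Schwann cell markers were highest in other libraries of the group. The part of tissue makeup, depth or labelling in these values was not tested.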

How the results depend on the processing

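The 6 lower DEGs in sub-SCI against Intact were called by every alternative that tested them, except the loss of Calb1 given above (at least 10 counts in every library left Slc17a7 and Slc17a8 untested). Numbers of members called, with the main number first, moved as follows. Shares of all genes are given for DESeq2 and for edgeR on the 2 groups, and not for the other alternatives. For +PBS-2w against Intact 1 became 2 with a replicate block and 3 with a term for replicate 1. It became 4 at an adjusted p under 0.05 with no minimum fold. It also became 4 with DESeq2 on all libraries, DESeq2 on the 2 groups and edgeR on the 2 groups. In that order these fits called 7.16%, 8.5% and 8.32% of genes as lower (5.66% in the main fit). For +PBS-4w against Intact 4 became 2 with edgeR on the 2 groups, which called 9.17% of genes as lower (10.7% in the main fit). For +MSC-1w against Intact 0 became 1 with the replicate block, the replicate 1 term or DESeq2 on all libraries. It became 3 at an adjusted p under 0.05 or with edgeR on the 2 groups, and 5 with DESeq2 on the 2 groups. DESeq2 on all libraries called 3.84% of genes as lower there (2.63% in the main fit). On the 2 groups edgeR called 5.07% and DESeq2 4.75%. For +MSC-2w and +MSC-4w against Intact 1 became 0 with at least 10 counts in every library, and 4 with either tool on the 2 groups. At 2 weeks it became 2 at an adjusted p under 0.05 and with DESeq2 on all libraries. At 4 weeks it became 2 with the block, the replicate 1 term or DESeq2 on all libraries, and 3 at an adjusted p under 0.05. On the 2 groups DESeq2 and edgeR called 1.34% and 1.1% of genes as lower at 2 weeks, and 2.73% and 2.62% at 4 weeks. DESeq2 on all libraries called 0.947% at 2 weeks and 2.36% at 4 weeks (0.461% and 1.53% in the main fit). Against sub-SCI, 0 became 1 for +PBS-4w with the block, the replicate 1 term or an adjusted p under 0.05. For +MSC-1w against sub-SCI 2 became 4 with DESeq2 and 1 with edgeR on the 2 groups. These fits called 7.7% and 3.55% of genes as higher (6.46% in the main fit). For +MSC-4w against sub-SCI 1 became 4 with the block, the replicate 1 term or DESeq2 on all libraries or the 2 groups. It became 5 at an adjusted p under 0.05 and 0 with edgeR on the 2 groups. DESeq2 called 9.67% of genes as higher on all libraries and 10.1% on the 2 groups, and edgeR on the 2 groups 8.14% (10.2% in the main fit). For the weekly +MSC and +PBS comparisons 0 became 3 at 1 week and 1 at 2 weeks with DESeq2 on the 2 groups. That fit called 1.43% and 0.48% of genes as higher (0% in the main fit both times). Averaged over weeks, 1 (Slc17a6) became 1 other (Calb2) with DESeq2 on all libraries, which called 1.91% of genes as higher (1.61% in the main fit). It became 0 with median-of-ratios factors, no filter, at least 10 counts in every library or the replicate 1 term, and 3 at an adjusted p under 0.05. The causes were not tested.

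Leaving out 1 library changed the calls as follows, with the share of all genes called in either direction in brackets. Against Intact it gave 2 to 4 for +PBS-4w (21.4% to 26.5%), 0 to 1 for +MSC-2w (4.71% to 6.81%) and 1 to 2 for +MSC-4w (6.58% to 10.4%). For +PBS-2w, leaving out 1 Intact library gave 1 call (11.9% to 13.9%), and the loss with 1 +PBS-2w library is given above. Against sub-SCI it gave 0 to 1 for +PBS-4w (3.98% to 8.91%), 0 to 1 for +MSC-1w (4.52% to 9.29%) and 0 to 2 for +MSC-4w (10.5% to 16.7%). For +MSC-4w against +PBS-4w it gave 0 to 3 (0.0167% to 2.95%). Averaged over weeks it gave 0 to 3 (1.07% to 4.97% with both +PBS-2w libraries kept). For sub-SCI scaled to neuron markers it gave 1 to 2, and the share of all genes in those fits is not given here. With all libraries kept, 82.1% of all genes were higher DEGs on that scale. These calls mix directions, since Calb1 was higher and Slc17a7, called without sub-SCI replicate 1, was lower.

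Values that changed sign, none of them called, were those of Calb1 at 4 weeks between +MSC and +PBS (-0.0046 with at least 10 counts) and Slc17a8 at 1 week (0.28 with the replicate block, 0.071 with the replicate 1 term). Scaled to neuron markers they were Calb2 in +PBS-4w against Intact (0.026 with 4 markers) and Slc17a8 with the replicate block in +PBS-2w (-0.26), in +PBS-4w (-0.031) and between +MSC-2w and +PBS-2w (0.24). Leaving out 1 library also changed signs, over -0.46 to 0.14 for Calb1 in +PBS-2w against Intact. Between +MSC and +PBS the ranges were -0.60 to 0.37 for Slc17a8 at 1 week, -0.17 to 0.45 for Calb1 at 2 weeks, -0.13 to 0.27 for Calb1 and -0.67 to 1.10 for Slc17a7 at 4 weeks, and -0.11 to 0.73 for Slc17a7 averaged. Scaled to neuron markers they were -0.71 to 0.15, -0.036 to 0.52 and -1.08 to 0.51 for Slc17a8 in +PBS at 1, 2 and 4 weeks, and -0.52 to 0.049 averaged. At 2 weeks they were -1.41 to 0.060 for Calb1, -0.26 to 0.24 for Slc17a6 and -0.23 to 0.069 for Slc17a8. At 4 weeks they were -0.41 to 0.67 for Pvalb, -0.38 to 0.62 for Calb2, -0.21 to 0.12 for Slc17a6, -1.83 to 0.095 for Slc17a7 and -0.70 to 1.01 for Slc17a8.

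The log2 ratio of Slc17a6 to Slc32a1 in sub-SCI was 0.91 without replicate 1 libraries and 0.80 with the replicate block, neither past 0.05, and 0.34 to 0.99 with 1 library left out. The averaged difference was -0.32 (exact permutation p = 0.0556), -0.22 (p = 0.082) and -0.31 to -0.21, with a p over 0.05 in 13 of the 19 fits that left out 1 library. That of +MSC-1w became 0.043 without replicate 1 libraries (-0.082 to 0.12 with 1 library left out), that of +PBS-1w 0.013 with the block (-0.15 to 0.051), that of +PBS-2w ranged from -0.025 to 0.11 and that of +MSC-4w from -0.40 to -0.14. The permutation test has fewer arrangements in these smaller sets.

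In most comparisons the correlations of same-numbered libraries were not all above 0. In sub-SCI against Intact the same-numbered correlations were 0.22, -0.05 and 0.13. The block moved no other number of calls by over 1.5 times. Slc17a8, at 0 to 33 reads per library, and Slc17a7 in injured libraries were limited by depth, and +PBS-2w by its 2 libraries.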
